A study of Mus musculus with 9 samples.

Results

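The RNAs described here are the transcripts of the mouse mitochondrial genome, the small circular chromosome M. They were taken as every gene of the deposited table whose name carries the chrM suffix, which gave 35 of 14912 genes. By name they fell into 13 mRNAs, the 2 rRNAs mt-Rnr1 and mt-Rnr2, and 20 tRNAs (names beginning mt-T). Of the 37 genes annotated on chromosome M in GENCODE M21, the other 2, mt-Tf and mt-Tl2, had no entry in the table. The mRNAs are written in the table without a hyphen (mtCo1 for mt-Co1).

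The study profiled CD4+ T cells of the strain B6.Cg-Foxp3tm2(EGFP)Tch/J, hemizygous for Foxp3tm2Tch, in which a green fluorescent protein reports Foxp3, and had 9 libraries in 3 groups of 3. Day 0 cells were eGFP-negative and untreated. TGFβ-iTreg cells were eGFP-positive on day 5, after culture with TGFβ at 10 ng/ml and IL-2 at 300 U/ml, with anti-CD3 and anti-CD28 both at 1 µg/ml. The mTO-iTreg cells were eGFP-positive on day 5 of co-culture with mouse colorectal tumour organoids, with IL-2 at 20 U/ml and the same antibodies at the same dose, and no TGFβ is listed for them. The reporter and the T cell origin were common to all groups. Between day 0 and either iTreg group, sort gate, time, antibody stimulation, IL-2 and the TGFβ or organoid culture changed together, and between the iTreg groups TGFβ, the IL-2 dose and the organoids did, so the parts of these cannot be told apart. The age of the animals is not given, and the labels do not say whether replicates came from separate animals or cultures, so p-values reflect no more than the spread among these libraries.

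Mitochondrial DNA is read as long transcripts from a promoter on each strand. The transcript from the heavy strand promoter carries both rRNAs, all but 1 of the mRNAs and most tRNAs, and the transcript from the light strand promoter carries mt-Nd6 and the remaining tRNAs. The tRNAs lie between the longer genes and are cut out by RNase P and ELAC2, which frees the rRNAs and mRNAs, and each RNA then has its own rate of decay. The mRNAs encode subunits of respiratory complexes I, III, IV and V, the rRNAs build the mitochondrial ribosome, and T cells raise mitochondrial biogenesis when they are activated. Since bulk libraries were measured, fewer cells with a given RNA and less of it per cell cannot be told apart.

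Sequences are shown for 7 tRNAs on which the tRNA results turn. The first 4 form pairs of neighbours on the same strand of which only the first member was read often in mTO-iTreg cells. The next 2 were the others read most often there, and the last went the opposite way. They are written 5′ to 3′ as DNA from the GENCODE M21 transcripts (GRCm38, the sequence of mm10), with the anticodon in capitals. It was located as the middle of a 7-base loop closed by a stem of 5 positions, at least 3 of them paired. The triplet also had to read the amino acid of the gene's name, with C or T before it and A or G after it. The marked anticodons thus follow the names by construction.
mt-Tc: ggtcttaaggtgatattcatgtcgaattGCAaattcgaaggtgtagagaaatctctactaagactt
mt-Ty: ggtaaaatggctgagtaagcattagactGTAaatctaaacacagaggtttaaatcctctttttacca
mt-Ts2: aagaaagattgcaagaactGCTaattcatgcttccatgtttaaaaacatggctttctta
mt-Th: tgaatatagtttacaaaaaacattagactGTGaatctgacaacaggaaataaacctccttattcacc
mt-Tv: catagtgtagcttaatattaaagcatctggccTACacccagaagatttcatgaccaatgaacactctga
mt-Tm: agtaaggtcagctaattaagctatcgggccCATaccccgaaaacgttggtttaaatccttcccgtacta
mt-Tt: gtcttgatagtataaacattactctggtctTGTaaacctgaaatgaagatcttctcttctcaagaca
mt-Tc (cysteine) lies at chrM:5192-5257 and mt-Ty (tyrosine) at chrM:5260-5326, both on the minus strand and read from the light strand promoter, with 2 bases between them. mt-Th (histidine) at chrM:11546-11612 and mt-Ts2 (the serine tRNA for AGY codons) at chrM:11613-11671 abut on the plus strand, as do mt-Rnr1 and mt-Tv (valine, chrM:1025-1093). mt-Tm (methionine) is at chrM:3845-3913 and mt-Tt (threonine) at chrM:15289-15355, also on the plus strand. All 35 members are single exons with no intron.

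Levels are deposited normalized counts, scaled by a factor for each library, and lists of 3 values follow replicates 1, 2 and 3. Libraries held 2078223 to 9944952 counts, and a single count was worth 0.494 to 2.69 normalized counts, so a tRNA with a level of a few units rests on a handful of counts. T cell genes (Cd3e, Cd3d, Cd3g, Cd4, Cd247, Lck) summed to 24373 to 26188 on day 0, 14785 to 15943 in the TGFβ-iTreg and 13925 to 17355 in mTO-iTreg libraries. These T cell genes were thus present in every group, and no gene particular to Treg cells was among them. Of 10 epithelial markers 5 had an entry, and their sum was 10.5 to 18.8, 127 to 138 and 34.1 to 114, highest in the TGFβ-iTreg libraries, which had no organoids; Vil1, Lgr5 and Krt18 were at 0 or close to it in all 9 libraries, and Epcam and Cdh1 made up most of the sum. Myeloid markers (6 of 9 with an entry) summed to 119 to 342, 9.88 to 41.8 and 8.68 to 47.1, highest in day 0 replicate 3. In that library Fcer1g (230) and Tyrobp (86.5) made up most of the sum. Cd68 (7.38) and Clec7a (1.05) were lower there than in the other day 0 libraries, and Cd14 was at 0. B cell markers (5 of 6) summed to 10.8 to 59.1, 30.6 to 76.0 and 61.1 to 114. CD8 and NK markers (3 of 4) summed to 132 to 188, 119 to 148 and 93.0 to 125, with Klrb1c highest in day 0 replicate 3 (67.5). The ribosomal precursor RNA Rn45s was at 53108 in mTO-iTreg replicate 1 and at 3461 to 13311 elsewhere. Malat1, a nuclear long RNA used here as a sign of RNA quality, was at 2565, 2328 and 3296 on day 0, 315, 319 and 369.5 in the TGFβ-iTreg and 4634, 3293 and 2773 in the mTO-iTreg libraries, lowest in every TGFβ-iTreg library. The part of these in the results below was not tested. Library codes of the mTO-iTreg samples also have another form than those of the other 6, and what that stands for cannot be told apart from the group.

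The 3 classes went different ways. mRNAs went from 16.4% ± 0.428 of all normalized counts on day 0 (SD, n = 3) to 9.73% ± 0.886 in the TGFβ-iTreg and 5.15% ± 0.338 in mTO-iTreg cells. By library the share was 16.5, 16.8 and 15.9% on day 0, 10.1, 8.72 and 10.3% in the TGFβ-iTreg and 4.76, 5.32 and 5.37% in mTO-iTreg cells, and the 3 groups did not overlap. In the same order of groups, rRNAs held 3.14, 2.08 and 1.45%, 2.20, 1.72 and 1.66% and 7.48, 6.81 and 7.06%, so that day 0 and TGFβ-iTreg overlapped and every mTO-iTreg library lay above both. tRNAs held 0.00329, 0.00304 and 0.00332%, 0.00534, 0.00460 and 0.00451% and 0.0477, 0.0628 and 0.0472%, a trace in every library, and here too the 3 groups did not overlap.

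mRNA and rRNA moved apart, and the sum over all of chromosome M showed little of this. It was 18.6% ± 1.13 on day 0, 11.6% ± 1.02 in the TGFβ-iTreg and 12.3% ± 0.145 in mTO-iTreg cells, and the last 2 overlapped. The ratio of rRNA to mRNA was 0.191, 0.124 and 0.0908 on day 0, 0.217, 0.197 and 0.160 in the TGFβ-iTreg and 1.57, 1.28 and 1.31 in mTO-iTreg libraries. For each 1000 mRNA counts there were 0.200, 0.181 and 0.209 tRNA counts on day 0, 0.527, 0.527 and 0.437 in the TGFβ-iTreg and 10.0, 11.8 and 8.79 in mTO-iTreg libraries. These ratios within a library do not depend on how libraries were scaled, and no p is given for them, since they are scores over chosen members. The libraries were primed on stretches of A, so ratios between classes are ratios of counts and need not be those of RNA amounts. Without Rn45s in the denominator, the mean mTO-iTreg shares were 5.17% for mRNA, 7.15% for rRNA and 0.0528% for tRNA.

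**Figure D1:**
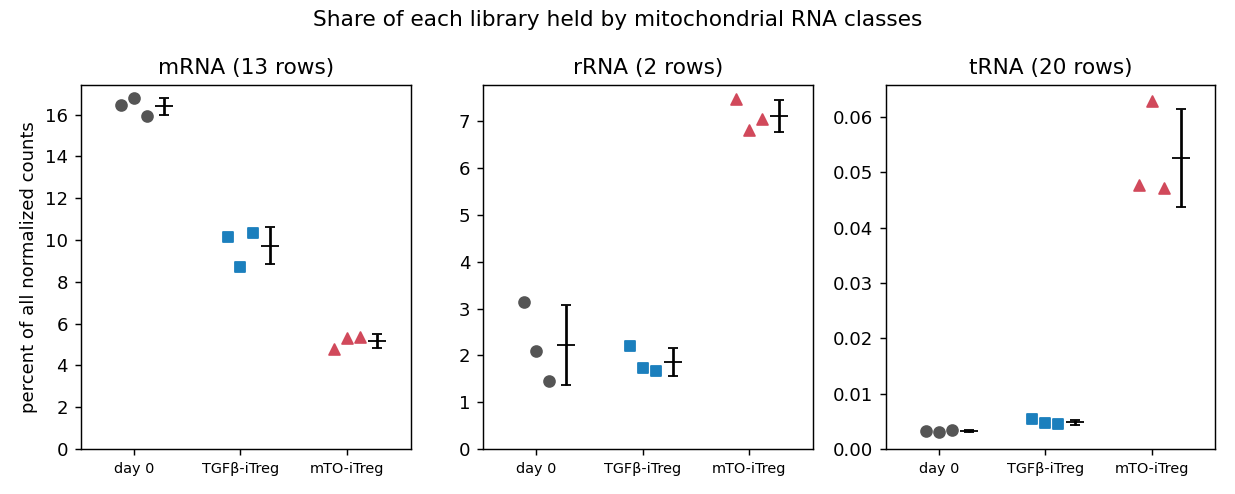
Percent of all normalized counts held by mitochondrial mRNA, rRNA and tRNA, each on its own axis from 0. Points are the 3 libraries of a group in replicate order, and the bar beside them is the mean ± SD; mRNA is lowest and rRNA and tRNA are highest in the 3 mTO-iTreg libraries.

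Gene by gene, limma's moderated test on log2(normalized count + 1) was fitted to all genes whose level reached 5 in 3 or more libraries, with p adjusted by Benjamini-Hochberg over those 10983 genes at a threshold of 0.05. All 13 mRNAs, both rRNAs and 17 of 20 tRNAs had enough signal, and mt-Tk, mt-Ts1 and mt-Ty did not. In TGFβ-iTreg against day 0 cells 11 members were lower, all of them mRNAs, where 8.80% of all genes were lower and 18.6% were called in either direction. By limma none was higher, where 9.78% of all genes were, and limma-voom also called none. At an unadjusted p under 0.05, 2 members were higher, both tRNAs. In mTO-iTreg against day 0 cells 13 were lower (background 14.5%), namely 12 mRNAs and mt-Tt, and 14 were higher (background 19.4%, 33.9% in either direction), namely mt-Nd6, both rRNAs and 11 tRNAs. In mTO-iTreg against TGFβ-iTreg cells 9 were lower (background 11.8%), 8 mRNAs and mt-Tt, and 15 were higher (background 14.9%, 26.6% in either direction), mt-Co1, mt-Nd6, both rRNAs and 11 tRNAs. Both comparisons with day 0 use the same 3 day 0 libraries. Counts over the tRNAs that were tested are inflated, because 11 of the 17 reached the minimum only through the mTO-iTreg libraries; counts over all 20 follow further on.

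Both rRNAs were higher in mTO-iTreg cells than in either other group. mt-Rnr2, the RNA of the large ribosomal subunit (chrM:1094-2675), stood at 142316, 102598 and 67761 on day 0, 84271, 69103 and 57569 in the TGFβ-iTreg and 311620.0, 289133 and 309945 in the mTO-iTreg libraries. All mTO-iTreg libraries were above all others, and day 0 and TGFβ-iTreg overlapped. It rose 2.91-fold against day 0 (log2 change 1.61 ± 0.21 SE, adjusted p = 6.8e-05) and 4.32-fold against TGFβ-iTreg (log2 change 2.13 ± 0.21 SE, adjusted p = 1.2e-05), and did not pass between TGFβ-iTreg and day 0 (log2 change -0.52 ± 0.21 SE, adjusted p = 0.105).

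mt-Rnr1, the RNA of the small subunit (chrM:70-1024), was less even, at 46782, 24461 and 13571 on day 0, 28189.5, 15101 and 23904 in the TGFβ-iTreg and 73375, 47610.0 and 49459 in the mTO-iTreg libraries. The day 0 libraries were spread widely, but all 3 stayed below the lowest mTO-iTreg library. It rose 2.01-fold against day 0 (log2 change 1.16 ± 0.34 SE, adjusted p = 0.0188) and 2.54-fold against TGFβ-iTreg (log2 change 1.36 ± 0.34 SE, adjusted p = 0.0102). The first call ended without day 0 replicate 3 (log2 change 0.72, adjusted p = 0.0773) and without mTO-iTreg replicate 1 (0.96, adjusted p = 0.0807). Day 0 replicate 3 had the highest sum of myeloid markers and mTO-iTreg replicate 1 the most Rn45s. Whether these bear on the calls was not tested. Both rRNAs come from the first part of the heavy strand transcript. The ratio of mt-Rnr2 to mt-Rnr1 was 3.04, 4.19 and 4.99 on day 0, 2.99, 4.58 and 2.41 in the TGFβ-iTreg and 4.25, 6.07 and 6.27 in mTO-iTreg libraries, and the groups overlapped.

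Of the mRNAs, 7 encode core subunits of complex I, the NADH dehydrogenase that feeds electrons into the chain. Their summed share of all normalized counts was 3.81, 3.65 and 3.42% on day 0, 2.49, 2.05 and 2.28% in the TGFβ-iTreg and 1.11, 1.49 and 1.18% in mTO-iTreg libraries, without overlap. mt-Nd1, a membrane subunit at the quinone site, stood at 48535, 48509 and 43249 on day 0, 30725, 27769 and 31039 in the TGFβ-iTreg and 20634, 28528 and 26893 in the mTO-iTreg libraries. It fell 1.57-fold in TGFβ-iTreg (log2 change -0.65 ± 0.12 SE, adjusted p = 0.00279) and 1.84-fold in mTO-iTreg cells against day 0 (log2 change -0.90 ± 0.12 SE, adjusted p = 0.000108), and the 2 iTreg groups overlapped (log2 change -0.25 ± 0.12 SE, adjusted p = 0.159). Quantile normalization ended both falls (log2 change -0.10, adjusted p = 0.702 and -0.33, adjusted p = 0.0929). mt-Nd2, a proton-pumping subunit, was at 47156, 48226 and 45577 on day 0, 22646, 12159.7 and 19402 in the TGFβ-iTreg and 14747, 18408 and 10837 in the mTO-iTreg libraries. Its falls were 2.6-fold (adjusted p = 0.000445) and 3.20-fold (adjusted p = 3.74e-05), and again the iTreg groups overlapped.

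mt-Nd3, a small subunit whose loop sits at the quinone site, set the 2 iTreg groups apart. It was at 29960.5, 31249 and 31583 on day 0, 32139.6, 28174 and 32030.0 in the TGFβ-iTreg and 5355, 5769.8 and 4786 in the mTO-iTreg libraries. TGFβ-iTreg and day 0 libraries overlapped, with a ratio of means of 0.995 (log2 change -0.01 ± 0.10 SE, adjusted p = 0.963), the smallest change among the mRNAs. mTO-iTreg libraries were 5.83-fold below day 0 (log2 change -2.55 ± 0.10 SE, adjusted p = 2.95e-09) and 5.80-fold below TGFβ-iTreg (log2 change -2.54 ± 0.10 SE, adjusted p = 1.24e-08).

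mt-Nd4 and mt-Nd4l, both membrane subunits, share an mRNA and 7 bases of sequence. mt-Nd4 was at 59126, 60084 and 45541 on day 0, 23875, 20674 and 19578 in the TGFβ-iTreg and 8983, 11459 and 10233 in the mTO-iTreg libraries. mt-Nd4l was at 6563, 8306 and 5519.6 on day 0, 4454, 2911 and 2524 in the TGFβ-iTreg and 1273, 1676 and 894 in the mTO-iTreg libraries. In both the 3 groups formed 3 separate steps. mt-Nd4 fell 2.57-fold in TGFβ-iTreg (adjusted p = 2.02e-05) and 5.37-fold in mTO-iTreg cells (adjusted p = 4.08e-08), and mt-Nd4l 2.06-fold (adjusted p = 0.00677) and 5.31-fold (adjusted p = 5.84e-06). Between the iTreg groups the falls were 2.09-fold (adjusted p = 7.13e-05) and 2.57-fold (adjusted p = 0.000877).

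mt-Nd5, the distal proton-pumping subunit, stood at 38194, 25776 and 20609 on day 0, 13284, 8552 and 7475 in the TGFβ-iTreg and 5696, 7555 and 5927 in the mTO-iTreg libraries. The fall in TGFβ-iTreg cells was 2.89-fold (adjusted p = 0.000465), the largest of any mRNA in that comparison, and the fall in mTO-iTreg cells 4.41-fold (adjusted p = 1.27e-05). The iTreg groups overlapped (log2 change -0.58 ± 0.23 SE, adjusted p = 0.0732). The seventh complex I mRNA, mt-Nd6, comes from the other promoter and is described with the light strand.

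Complex III, the cytochrome bc1 complex, has 1 mitochondrial subunit, cytochrome b. Its mRNA mt-Cytb was at 167163, 181869 and 145830.0 on day 0, 90862, 75075 and 87845 in the TGFβ-iTreg and 12334, 16398 and 13018 in the mTO-iTreg libraries, in 3 separate steps. It fell 1.95-fold in TGFβ-iTreg (log2 change -0.96 ± 0.13 SE, adjusted p = 0.000252) and 11.9-fold in mTO-iTreg cells (log2 change -3.57 ± 0.13 SE, adjusted p = 1.03e-09), and was 6.08-fold lower in mTO-iTreg than in TGFβ-iTreg cells (log2 change -2.61 ± 0.13 SE, adjusted p = 2.88e-08). Both mTO-iTreg falls were the largest of any mitochondrial mRNA, and the TGFβ-iTreg fall ended under quantile normalization (log2 change -0.13, adjusted p = 0.564).

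Complex IV, cytochrome c oxidase, has 3 mitochondrial core subunits, and their mRNAs did not move together. mt-Co1, which holds the haem and copper of the active site, was at 133002, 140924 and 132900.0 on day 0, 77952, 65045 and 78609.6 in the TGFβ-iTreg and 108825, 95329 and 111081 in the mTO-iTreg libraries. Here the TGFβ-iTreg libraries were the lowest and the mTO-iTreg libraries lay between. mt-Co1 fell 1.84-fold in TGFβ-iTreg cells (log2 change -0.88 ± 0.11 SE, adjusted p = 0.000133, ended by quantile normalization with -0.19, adjusted p = 0.369) and was 1.42-fold higher in mTO-iTreg than in TGFβ-iTreg cells (log2 change 0.51 ± 0.11 SE, adjusted p = 0.00395). Its fall in mTO-iTreg against day 0 cells, 1.29-fold (log2 change -0.37 ± 0.11 SE, adjusted p = 0.0187), was small: 6 of 20 alternatives ended the call, among them leaving out day 0 replicate 1 (adjusted p = 0.0505), day 0 replicate 2 (0.0593) or mTO-iTreg replicate 2 (0.0726), and quantile normalization turned it into a rise of 0.48 on the log2 scale (adjusted p = 0.0149).

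mt-Co2, the subunit that takes electrons from cytochrome c, was at 164926, 167878 and 164368 on day 0, 93403, 80068 and 103072 in the TGFβ-iTreg and 30378, 34354 and 44900.4 in the mTO-iTreg libraries, in 3 steps. The falls were 1.80-fold in TGFβ-iTreg (adjusted p = 0.000966) and 4.53-fold in mTO-iTreg cells (adjusted p = 1.69e-07), and 2.52-fold between the iTreg groups (adjusted p = 1.64e-05). mt-Co3, the third core subunit, was at 47398, 48498 and 47609 on day 0, 29193, 27582 and 30421 in the TGFβ-iTreg and 5825, 6736 and 7039.9 in the mTO-iTreg libraries. It fell 1.65-fold in TGFβ-iTreg (adjusted p = 0.00031) and 7.32-fold in mTO-iTreg cells (adjusted p = 7.99e-10), and was 4.45-fold lower in mTO-iTreg than in TGFβ-iTreg cells (adjusted p = 1.49e-08). Quantile normalization turned the mt-Co2 fall in TGFβ-iTreg into a rise of 0.66 that lay just short of passing (adjusted p = 0.0505). Under it the mt-Co3 fall no longer passed (adjusted p = 0.160).

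Complex V, the ATP synthase, has 2 mitochondrial subunits, mt-Atp6 of the proton channel and the small mt-Atp8, which are encoded in a shared mRNA and overlap by 43 bases. mt-Atp6, the highest mitochondrial mRNA per kb in day 0 cells, was at 241416, 254065 and 206993 on day 0, 96856, 76669 and 93295 in the TGFβ-iTreg and 29888, 35247 and 36406 in the mTO-iTreg libraries. mt-Atp8 was at 7281, 7449 and 5677 on day 0, 2789, 2214 and 2695 in the TGFβ-iTreg and 810.3, 983 and 1068 in the mTO-iTreg libraries. Both went down in 3 separate steps. mt-Atp6 fell 2.63-fold in TGFβ-iTreg (adjusted p = 1.12e-05) and 6.92-fold in mTO-iTreg cells (adjusted p = 8.35e-09), and mt-Atp8 2.65-fold (adjusted p = 2.91e-05) and 7.13-fold (adjusted p = 2.4e-08). From TGFβ-iTreg to mTO-iTreg cells the falls were 2.63-fold (adjusted p = 6.26e-06) and 2.69-fold (adjusted p = 1.49e-05). The TGFβ-iTreg fall of mt-Atp6 ended under quantile normalization (log2 change -0.53, adjusted p = 0.0796).

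**Figure D2:**
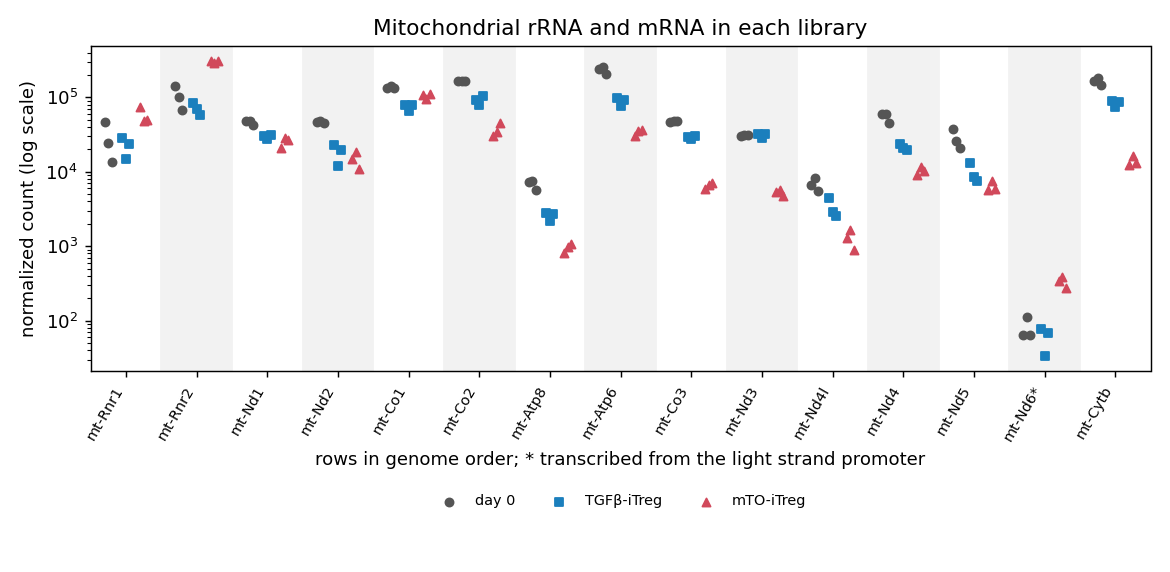
Normalized counts of the 2 rRNAs and 13 mRNAs in each of 9 libraries on a log axis, in genome order, with 3 points per group. The rRNAs and mt-Nd6 are highest in mTO-iTreg libraries, mt-Co1 is lowest in TGFβ-iTreg libraries, and the other mRNAs are lowest in mTO-iTreg libraries, with overlap for mt-Nd1, mt-Nd2 and mt-Nd5.

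Over the 12 heavy strand mRNAs, the ratio of the day 0 mean to the TGFβ-iTreg mean ran from 1.00 (mt-Nd3) to 2.89 (mt-Nd5), and the median log2 change of all 13 mRNAs was -0.96 beside -0.02 for all genes. mRNA libraries did not overlap in 11 of 13, all lower, where 17.8% of all genes were lower and 18.0% higher without overlap. In mTO-iTreg against day 0 cells the ratios ran from 1.29 (mt-Co1) to 11.9 (mt-Cytb), and the median log2 change was -2.42 beside 0.09. There 12 of 13 were lower and mt-Nd6 higher without overlap (background 20.3% and 25.8%). Between the iTreg groups the median was -1.35 beside 0.13, with 8 lower, 2 higher and 3 overlapping (background 18.7% lower and 25.9% higher). Scaling libraries to equal totals moved the median of all genes to 0.22, 0.31 and 0.10 in the 3 comparisons, and the mRNA medians were then -0.71, -2.20 and -1.37.

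The make-up of the mRNA pool differed between groups. Per kilobase of gene, the highest mean levels on day 0 were mt-Atp6 (343844 normalized counts per kb), mt-Co2 (242286) and mt-Cytb (144190.0), and mt-Co1 was at 87773. TGFβ-iTreg cells had mt-Co2 (134768) and mt-Atp6 (130602) at the top, whose libraries overlapped per kb, followed by mt-Nd3 (88452) and mt-Cytb (73946). mTO-iTreg cells had mt-Co1 first (68012), then mt-Co2 (53427) and mt-Atp6 (49702), with mt-Cytb at 12165. There the range of mt-Co2 per kb overlapped with those of mt-Co1 and of mt-Atp6. Within every mTO-iTreg library mt-Co1 was above mt-Co2 per kb, while the order of mt-Co2 and mt-Atp6 changed between libraries. Among all members, mt-Rnr2 led there with 191888 per kb. As a share of mRNA counts within each library, mt-Co1 made up 13.4, 13.8 and 14.8% on day 0, 15, 15.2 and 15.5% in the TGFβ-iTreg and 44.4, 36.3 and 40.6% in mTO-iTreg libraries, and mt-Cytb 17 ± 0.753%, 17.5 ± 0.157% and 5.34 ± 0.786%. mt-Nd3 made up 3.20 ± 0.282%, 6.37 ± 0.206% and 2.04 ± 0.254%. The libraries were made by a 3′-end method, in which counts need not grow with length, so the order per kb is a description only.

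Among the rRNAs and mRNAs of the heavy strand transcript, the change in mTO-iTreg against day 0 cells went from gains at the rRNAs to the deepest loss at mt-Cytb. The rRNAs lie at the start, and mt-Cytb is the last mRNA. The tRNAs of this transcript are left out here and did not all follow that order. Between mt-Nd4 and mt-Nd5, mt-Ts2 rose from a mean of 0 to 578, while mt-Tt, after mt-Cytb, fell from 69.5 to 31.8. Across the 12 mRNAs of that transcript, the log2 ratio of means and the distance of the gene start from mt-Rnr1 had a Pearson correlation of -0.75 and a Spearman correlation of -0.57. For TGFβ-iTreg against day 0 the values were -0.10 and -0.24. These describe 12 genes of 1 transcript in the same libraries, which are not independent, and carry no p. mt-Co1 and mt-Nd5 stood above their neighbours in mTO-iTreg cells, so the gradient was not smooth. The Spearman correlation of the same change with gene length was 0.41, with the day 0 level -0.11 and with GC content 0.16.

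**Figure D3:**
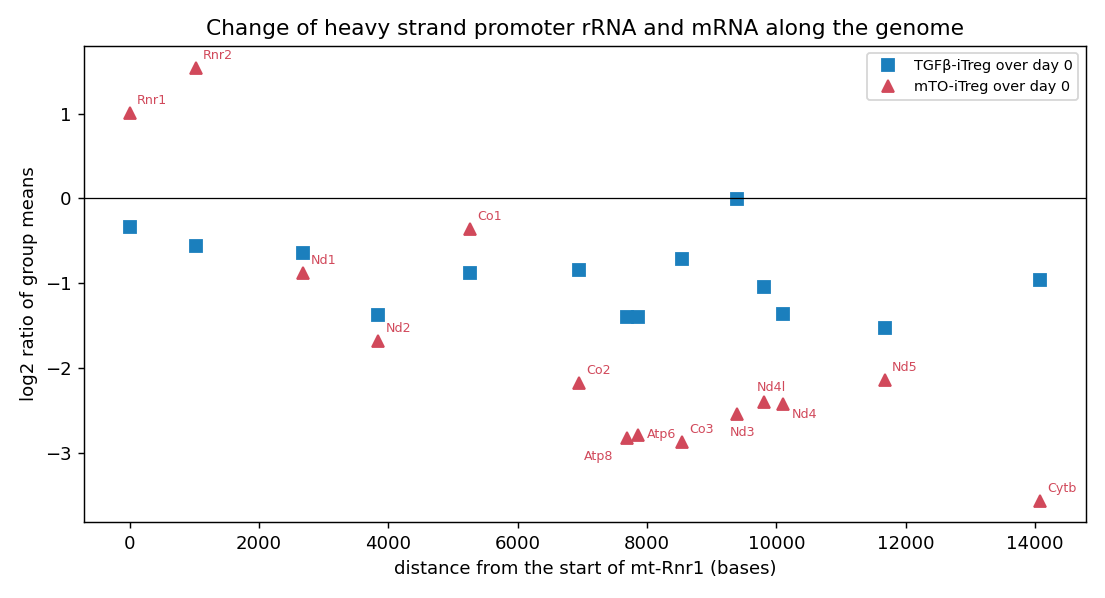
Log2 ratio of group means against day 0 for the 2 rRNAs and 12 mRNAs of the heavy strand transcript, by distance of the gene start from the start of mt-Rnr1 in bases; squares are TGFβ-iTreg and labelled triangles mTO-iTreg. Triangles run from above 0 at the rRNAs to -3.57 at mt-Cytb, with mt-Co1 above its neighbours, while squares lie between 0 and -1.53 along the whole genome.

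For genes that share an mRNA, the proportion was followed by library. mt-Atp8 was 3.02, 2.93 and 2.74% of mt-Atp6 on day 0, 2.88, 2.89 and 2.89% in the TGFβ-iTreg and 2.71, 2.79 and 2.93% in mTO-iTreg libraries, a range of 2.71 to 3.02%. The groups overlapped in this ratio. mt-Nd4l was looser, at 11.1, 13.8 and 12.1%, 18.7, 14.1 and 12.9% and 14.2, 14.6 and 8.74% of mt-Nd4, with overlap between all groups. Counts in the 43 and 7 shared bases could go to either gene, and how the authors counted them is not given in the sources used here.

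**Figure D4:**
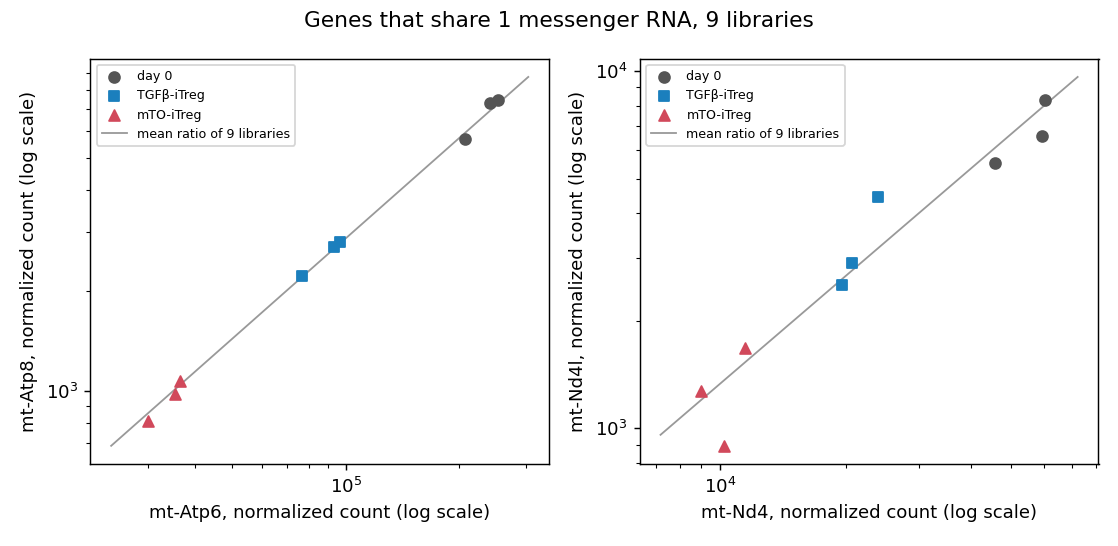
Normalized counts of mt-Atp8 against mt-Atp6 and of mt-Nd4l against mt-Nd4 in 9 libraries, both axes on log scales, with a line at the mean ratio. The points of mt-Atp8 lie along the line from mTO-iTreg at the bottom to day 0 at the top, and those of mt-Nd4l scatter more, from 8.74 to 18.7% of mt-Nd4.

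From the light strand promoter, mt-Nd6, a membrane subunit of complex I, was the only mRNA that rose against day 0. It was at 64.9, 110.2 and 64.4 on day 0, 76.2, 33.2 and 67.7 in the TGFβ-iTreg and 344, 380.3 and 276 in the mTO-iTreg libraries, and all mTO-iTreg libraries were above the rest. The rise was 4.17-fold against day 0 (log2 change 2.08 ± 0.34 SE, adjusted p = 0.00039) and 5.64-fold against TGFβ-iTreg (log2 change 2.55 ± 0.34 SE, adjusted p = 0.000123). Its neighbour on the other strand, mt-Nd5, fell in the same cells, so that mt-Nd6 per 1000 of mt-Nd5 was 1.70, 4.28 and 3.12 on day 0, 5.74, 3.89 and 9.05 in the TGFβ-iTreg and 60.4, 50.3 and 46.5 in mTO-iTreg libraries. mt-Nd6 was counted far less than the heavy strand mRNAs, at 642 per kb in mTO-iTreg cells against 3505 for mt-Nd5. The libraries were primed on stretches of A, so a low count need not mean a low RNA level. The 2 genes share 14 bases on opposite strands, and since the use of strand in counting is not given, counts there cannot be told apart. The 8 tRNAs of this promoter summed to 12.3, 5.38 and 14.8 on day 0, 4.92, 6.10 and 7.90 in the TGFβ-iTreg and 783, 962 and 787 in mTO-iTreg libraries. The 12 of the heavy strand promoter summed to 186, 180.1 and 172, 268, 219 and 214 and 1673, 2145 and 1616.

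The tRNAs carry amino acids to the mitochondrial ribosome. They were read rarely in day 0 cells: all 20 together had 359 counts on day 0, 892 in the TGFβ-iTreg and 12227 in mTO-iTreg cells. These counts are not scaled for depth, which differed between groups. The mean sums of normalized counts were 190, 240 and 2655 in the same order. With no filter on low values, so that every tRNA was tested, 11 of 20 were higher in mTO-iTreg than in day 0 cells (background 14.0%) and 11 of 20 higher than in TGFβ-iTreg cells (background 10.2%), with mt-Tt the only one lower in each (background 10.6% and 8.18%). The median log2 change of the 20 was 2.56 and 3.02, beside 0.01 and 0.06 for all genes. A lower bound replaced the fitted value for only 2 and 1 tRNAs at 0 counts. These lay above the median either way, so the median could not move. Over the 17 with enough signal the median was 2.90 and 3.69, and with a pseudocount of 5 it was 1.93 and 2.31. These medians cover a set shaped by the mTO-iTreg levels, since 11 of the 17 reached the minimum only through those libraries. Adjusted p-values of single tRNAs below come from the fit with this filter. Between TGFβ-iTreg and day 0 none of the 20 was called by limma, where 6.48% of genes were higher and 5.95% lower; 2 were higher and 1 lower at an unadjusted p under 0.05, and limma-voom called none of the 17 with enough signal. Libraries did not overlap for 15 higher and 2 lower tRNAs of the 20 against day 0 (background 25.8% and 20.3%) and for 12 higher and 1 lower against TGFβ-iTreg (background 25.9% and 18.7%). These backgrounds are over the 10983 genes with enough signal, which leave out 3 of the tRNAs. Near 0 the value of a single count, which differs between libraries, can set the order.

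Of all tRNA counts in mTO-iTreg libraries, 4 tRNAs took most. mt-Tc was at 0, 0 and 1.05 on day 0, 0, 2.71 and 0.494 in the TGFβ-iTreg and 631, 793 and 607 in the mTO-iTreg libraries, so that only the mTO-iTreg libraries were far from 0. From 1 count in the day 0 libraries and 5 in TGFβ-iTreg to 3118 in mTO-iTreg libraries, the ratio of pooled levels was 1286 (95% counting interval 231 to 50794) against day 0 and 531 (95% counting interval 227 to 1637) against TGFβ-iTreg. mt-Tc rose against both (limma adjusted p = 7.98e-07 and adjusted p = 3.12e-06). Its neighbour mt-Ty, 2 bases away on the same strand, had 0, 1 and 2 counts in the 3 groups, below the floor of 3 counts in each.

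mt-Ts2 was at 0, 0 and 0 on day 0, 0, 0 and 0.494 in the TGFβ-iTreg and 553, 715 and 465 in the mTO-iTreg libraries. With 0 counts on day 0 it was at least 366-fold higher in mTO-iTreg cells, taking 3 counts for the whole group as the floor, and with 1 count in TGFβ-iTreg cells the ratio was 2269.7 (95% counting interval 407 to 89682). Both differences passed (adjusted p = 4.99e-07 and adjusted p = 1.24e-06). mt-Th, which abuts it on the 5′ side, stood at 0, 0 and 4.22 on day 0, 2.46, 8.14 and 2.47 in the TGFβ-iTreg and 8.87, 13 and 4.65 in the mTO-iTreg libraries and was not called in any comparison. The mTO-iTreg mean of mt-Ts2 was 9793 per kb, that of mt-Th 132.

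mt-Tv, which lies between the 2 rRNAs, was at 0, 10.8 and 0 on day 0, 0, 2.71 and 2.96 in the TGFβ-iTreg and 508, 713 and 634 in the mTO-iTreg libraries. From 4 counts, all in day 0 replicate 2, the ratio of pooled levels was 294 (95% counting interval 115 to 1078) against day 0, and 243 (95% counting interval 132 to 507) against TGFβ-iTreg (adjusted p = 1.99e-05 and adjusted p = 3.52e-05). mt-Tl1 (leucine), on the other side of mt-Rnr2, was at 12.3, 5.38 and 12.7 on day 0, 14.8, 5.43 and 10.4 in the TGFβ-iTreg and 19.8, 13.6 and 21.3 in the mTO-iTreg libraries and was not called. mt-Tm, which supplies the starting methionine, had counts in every library, at 66.7, 40.3 and 31.6 on day 0, 39.4, 17 and 16.8 in the TGFβ-iTreg and 338, 425 and 259 in the mTO-iTreg libraries. It rose 7.37-fold against day 0 (log2 change 2.90 ± 0.41 SE, adjusted p = 0.000123) and 14.0-fold against TGFβ-iTreg (log2 change 3.84 ± 0.41 SE, adjusted p = 1.95e-05).

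As shares of all tRNA counts in the library, mt-Tc made up 25.5 ± 0.211%, mt-Tv 23.3 ± 2.86%, mt-Ts2 21.6 ± 1.99% and mt-Tm 12.7 ± 1.70% in mTO-iTreg cells. On day 0 the leading shares were 36.6 ± 6.26% for mt-Tt, 24.1 ± 8.59% for mt-Tm and 17.3 ± 7.59% for mt-Tw, and in TGFβ-iTreg cells 45.3 ± 4.01% for mt-Tt and 25 ± 5.79% for mt-Tw. In mTO-iTreg cells mt-Tt was down to 1.18 ± 0.304%.

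mt-Tt, directly downstream of mt-Cytb, stood at 71.9, 56.4 and 80.2 on day 0, 113, 101 and 109.7 in the TGFβ-iTreg and 32.7, 42.8 and 19.9 in the mTO-iTreg libraries. Its order of groups was TGFβ-iTreg, day 0 and mTO-iTreg, with no overlap. The fall against TGFβ-iTreg was 3.39-fold (log2 change -1.79 ± 0.36 SE, adjusted p = 0.00244) and that against day 0 2.18-fold (log2 change -1.15 ± 0.36 SE, adjusted p = 0.0231). The second call ended under 5 of 20 alternatives, among them without day 0 replicate 1 (adjusted p = 0.0579), day 0 replicate 3 (0.0733) or mTO-iTreg replicate 3 (0.0837). mt-Tp (proline), which abuts mt-Tt on the opposite strand, went the other way, at 1.75, 0 and 0 on day 0, 0, 0 and 0 in the TGFβ-iTreg and 75.7, 81.3 and 93.0 in the mTO-iTreg libraries. With 1 count on day 0 the pooled ratio was 158 (95% counting interval 28.1 to 6237) (adjusted p = 8.04e-05), and with none in TGFβ-iTreg cells it was at least 108-fold higher in mTO-iTreg cells (adjusted p = 6.49e-05).

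Another 5 tRNAs reached a mean of 20 in mTO-iTreg cells. mt-Tw (tryptophan) was at 24.6, 48.4 and 25.3 on day 0, 68.9, 69.2 and 42.5 in the TGFβ-iTreg and 97.5, 128 and 116 in the mTO-iTreg libraries. It rose 3.47-fold against day 0 (log2 change 1.83 ± 0.38 SE, adjusted p = 0.00211) but did not pass against TGFβ-iTreg (log2 change 0.93 ± 0.38 SE, adjusted p = 0.084), though those libraries did not overlap. mt-Tr (arginine) was at 0, 0 and 0 on day 0, 0, 0.678 and 0.494 in the TGFβ-iTreg and 53.9, 38.5 and 61.1 in the mTO-iTreg libraries, that is, at least 32.0-fold higher than on day 0 (adjusted p = 0.000113), and its ratio to TGFβ-iTreg was 99.3 (95% counting interval 27.2 to 824) (adjusted p = 0.000321). mt-Ti (isoleucine) was at 0, 2.69 and 0 on day 0, 2.46, 1.36 and 0.494 in the TGFβ-iTreg and 38.2, 35.4 and 19.9 in the mTO-iTreg libraries, with ratios of 59.0 (95% counting interval 10.4 to 2345) and 30.5 (95% counting interval 11.6 to 113) (adjusted p = 0.00156 and adjusted p = 0.00559).

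mt-Tn (asparagine) and mt-Tq (glutamine) come from the light strand. mt-Tn was at 3.51, 2.69 and 3.16 on day 0, 0, 2.03 and 1.98 in the TGFβ-iTreg and 19.8, 32.9 and 26.6 in the mTO-iTreg libraries, and its pooled ratios were 8.38 (95% counting interval 3.74 to 23.3) against day 0 and 14.8 (95% counting interval 6.99 to 37.7) against TGFβ-iTreg (adjusted p = 0.0144 and adjusted p = 0.00311); the call against day 0 ended without mTO-iTreg replicate 2 (adjusted p = 0.0529). mt-Tq was at 0, 0 and 1.05 on day 0, 0, 0 and 0.988 in the TGFβ-iTreg and 25.9, 24.8 and 25.9 in the mTO-iTreg libraries, with ratios of 48.2 (95% counting interval 8.49 to 1921) and 49.8 (95% counting interval 13.5 to 416) (adjusted p = 0.00134 and adjusted p = 0.00194). In both, every mTO-iTreg library was above every other.

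The 9 remaining tRNAs stayed under a mean of 20 in every group. Of these, mt-Te (glutamate) rose against day 0, from 2 counts to 69 (adjusted p = 0.0142), and against TGFβ-iTreg (adjusted p = 0.0435), which did not pass under 9 of 19 alternatives, among them leaving out any 1 iTreg library (adjusted p = 0.0507 to 0.157). mt-Ta (alanine) rose against TGFβ-iTreg (adjusted p = 0.0146) and not against day 0 (adjusted p = 0.0886). mt-Tg, mt-Th, mt-Tl1 and mt-Td were not called in any comparison, and their group means lay between 1.41 and 18.2. mt-Tk, mt-Ts1 and mt-Ty had group means of 0 to 4.43 and were too rare for the filter.

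**Figure D5:**
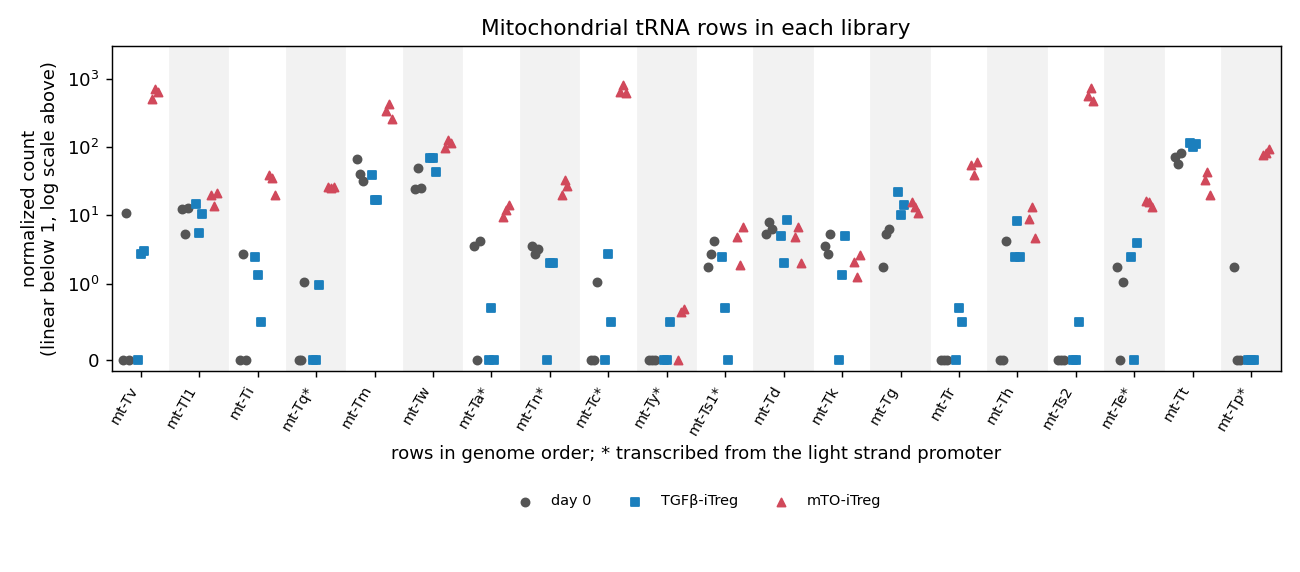
Normalized counts of the 20 tRNAs in 9 libraries, in genome order, on an axis that is linear below 1 and logarithmic above, with 3 points per group. mTO-iTreg libraries stand far above the others for mt-Tv, mt-Tm, mt-Tc, mt-Ts2 and mt-Tp, and below them for mt-Tt.

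The tRNAs that were counted most in mTO-iTreg cells and the rest are described here by promoter, length and base composition. Of the 11 with a mean of at least 20 there, 4 came from the light strand promoter, as did 4 of the other 9. Their lengths were 59 to 71 bases against 65 to 75, their longest runs of A 2 to 8 against 3 to 6 bases, and their GC contents 22.1 to 44.9% against 17.1 to 44.0%. These ranges overlap. They describe a split made on the measured level, and what set the levels was not tested. Of the neighbours printed above, mt-Tc and mt-Ty differ by 1 base in length, and their longest runs of A are 3 and 4. As a comparison chosen after its values were seen, the 59 nuclear Snora, Snord and Scarna genes, other short RNAs, summed to 237 to 244 on day 0, 91.0 to 159.6 in the TGFβ-iTreg and 114 to 193 in mTO-iTreg libraries, so these were highest on day 0. Whether they bear on the tRNA counts was not tested.

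To ask which members changed by more or less than the mitochondrial mRNAs as a whole, each library was divided by its sum over the 13 mRNAs and the same test was run on all genes. On this scale most nuclear genes are higher where mRNAs are lower, so the background is high: 50.3%, 80.1% and 52.2% of all genes were higher in the 3 comparisons, and 1.62%, 0.956% and 2.80% lower, or 51.9%, 81.0% and 55.0% in either direction. In TGFβ-iTreg against day 0 cells 6 members were higher and 3 lower, in mTO-iTreg against day 0 cells 20 and 7, and in mTO-iTreg against TGFβ-iTreg cells 19 and 6. All of the lower members were mRNAs, and the sum used as divisor holds them. Some must then change by less and others by more than it, so the low background is no measure for them. Of the higher members 3, 15 and 13 were tRNAs, and 11 of the 17 tested passed the filter only through the mTO-iTreg libraries. With no filter 3, 15 and 13 of 20 tRNAs were higher, where 5263, 8869 and 5555 of 14616 genes were. In TGFβ-iTreg cells mt-Nd3 rose against the pool (log2 change 1.00 ± 0.13 SE, adjusted p = 3.3e-05), while mt-Atp6 (log2 change -0.39 ± 0.12 SE, adjusted p = 0.016), mt-Atp8 and mt-Nd4 fell. Leaving out day 0 replicate 1 or day 0 replicate 2 ended all 3 of these falls (adjusted p = 0.0583 to 0.143), and that of mt-Nd4 ended under 7 of 16 alternatives (adjusted p up to 0.154). In mTO-iTreg against day 0 cells mt-Co1 (log2 change 1.53 ± 0.13 SE, adjusted p = 1.04e-07), mt-Nd1 (log2 change 1.00 ± 0.13 SE, adjusted p = 5.82e-06) and mt-Nd6 rose and mt-Cytb (log2 change -1.68 ± 0.14 SE, adjusted p = 5.14e-08) and mt-Co3 (log2 change -0.98 ± 0.12 SE, adjusted p = 3.82e-06) fell. mt-Rnr1 and mt-Rnr2 rose by 3.05 and 3.50 on the log2 scale there, and mt-Tt did not pass (log2 change 0.70 ± 0.39 SE, adjusted p = 0.106). With all of chromosome M as the denominator, in which rRNA weighs more, mt-Nd1 turned to -0.077 and mt-Nd2 from 0.18 to -0.90.

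Nuclear genes make the proteins that copy mitochondrial DNA and transcribe, process, stabilise and degrade its RNA. Of 71 such genes with enough signal, in 6 lists, 5 were higher and none lower in TGFβ-iTreg against day 0 cells (background 9.78% and 8.80%; 6 were lower at an unadjusted p under 0.05, and none by limma-voom), 5 were higher and 4 lower in mTO-iTreg against day 0 cells (19.4% and 14.5%), and 3 higher and 5 lower between the iTreg groups (14.9% and 11.8%). The mitochondrial RNA polymerase Polrmt, its factors Tfam, Tfb2m and Tefm, and the mRNA-binding pair Lrpprc and Slirp were not called in any comparison. Tfam, which also packs the DNA, was at 453, 403 and 479 on day 0, 443, 379.8 and 356 in the TGFβ-iTreg and 429.7, 399.5 and 294 in the mTO-iTreg libraries (mTO-iTreg against day 0, log2 change -0.26 ± 0.18 SE, adjusted p = 0.282), and Polrmt at 47.4, 99.5 and 98.1 on day 0, 46.7, 106 and 54.3 in the TGFβ-iTreg and 28.6, 129 and 95 in the mTO-iTreg libraries (log2 change -0.13 ± 0.53 SE, adjusted p = 0.874). Their groups overlapped. Lrpprc, which protects the heavy strand mRNAs, was at 163, 266 and 296 on day 0, 226, 241 and 123 in the TGFβ-iTreg and 179, 156 and 137 in the mTO-iTreg libraries (log2 change -0.58 ± 0.29 SE, adjusted p = 0.143).

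The 3 subunits of mitochondrial RNase P, which cuts the 5′ ends of tRNAs, moved apart in mTO-iTreg against day 0 cells. Trmt10c, the methyltransferase subunit, was at 94.7, 134 and 91.8 on day 0, 44.3, 60.4 and 58.8 in the TGFβ-iTreg and 43.0, 49.0 and 19.3 in the mTO-iTreg libraries, and it fell in mTO-iTreg against day 0 cells (log2 change -1.58 ± 0.40 SE, adjusted p = 0.00758). The nuclease subunit Prorp, listed as 1110008L16Rik, was at 14.0, 18.8 and 9.49 on day 0, 39.4, 23.1 and 30.6 in the TGFβ-iTreg and 62.1, 67.0 and 57.1 in the mTO-iTreg libraries and rose (log2 change 2.11 ± 0.46 SE, adjusted p = 0.00289). Hsd17b10, the dehydrogenase subunit, was at 500.0, 309 and 333 on day 0, 315, 293 and 248 in the TGFβ-iTreg and 610.4, 585 and 480.3 in the mTO-iTreg libraries. It rose against TGFβ-iTreg (log2 change 0.97 ± 0.20 SE, adjusted p = 0.00312), and its rise against day 0 (log2 change 0.58 ± 0.20 SE, adjusted p = 0.0395) was ended by 7 of 20 alternatives, among them leaving out day 0 replicates 2 or 3 or mTO-iTreg replicates 1 or 2 (adjusted p = 0.0982 to 0.142) or TGFβ-iTreg replicate 2 (0.0517). Whether these levels bear on the tRNA counts was not tested.

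Among the other genes, Ssbp1, the single-strand binding protein of mitochondrial DNA replication, was at 612, 425 and 604 on day 0, 571, 532 and 480.2 in the TGFβ-iTreg and 240.1, 171 and 209 in the mTO-iTreg libraries. It fell in mTO-iTreg cells against both groups (log2 change -1.39 ± 0.19 SE, adjusted p = 9.98e-05; log2 change -1.36 ± 0.19 SE, adjusted p = 0.00019). Rexo2, an exonuclease that clears short RNA in mitochondria, was at 388, 336 and 383 on day 0, 691, 622 and 621 in the TGFβ-iTreg and 274, 403 and 306 in the mTO-iTreg libraries, highest in TGFβ-iTreg cells (log2 change 0.80 ± 0.17 SE, adjusted p = 0.0055 against day 0; log2 change -0.99 ± 0.17 SE, adjusted p = 0.000889 for mTO-iTreg against TGFβ-iTreg). Angel2 was at 242, 185 and 188 on day 0, 199, 199 and 159 in the TGFβ-iTreg and 66.8, 123 and 86.4 in the mTO-iTreg libraries and fell in mTO-iTreg cells (log2 change -1.18 ± 0.26 SE, adjusted p = 0.00321). Mtpap, the mitochondrial poly(A) polymerase, was at 153, 255 and 146 on day 0, 194, 136 and 185 in the TGFβ-iTreg and 278, 342 and 270.4 in the mTO-iTreg libraries. Its rises in mTO-iTreg cells (log2 change 0.72 ± 0.25 SE, adjusted p = 0.0375; log2 change 0.79 ± 0.25 SE, adjusted p = 0.0309) were each ended by 6 alternatives, 5 of them leaving out a library. Of the regulators, Myc was highest in TGFβ-iTreg cells at 840.1 ± 122 (SD), against 366 ± 52.8 on day 0 and 484 ± 89.8 in mTO-iTreg cells. The other called genes were Mrpl12 (log2 change 0.81, adjusted p = 0.0171), Tfe3 (log2 change 1.17, adjusted p = 0.0334) and Trmt5 (log2 change 1.11, adjusted p = 0.0406), higher in TGFβ-iTreg against day 0 cells, Tfe3 (log2 change 1.13, adjusted p = 0.0228) and Top3a (log2 change 2.78, adjusted p = 0.0374), higher in mTO-iTreg against day 0 cells, Yrdc, lower in mTO-iTreg cells against both (log2 change -0.71, adjusted p = 0.0329; log2 change -0.84, adjusted p = 0.0183), and Yy1, higher in mTO-iTreg than in TGFβ-iTreg cells (log2 change 0.72, adjusted p = 0.00355). Of these, all calls but that of Yy1 were ended by 3 to 11 of the alternatives.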

How the data were processed

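RNA from CD4+ T cells was measured in 9 libraries of 3 groups, with groups and replicate numbers taken from the sample titles. Total RNA was turned into libraries with a modified CEL-Seq protocol, per the labels' protocols. CEL-Seq primes on stretches of A, so a tRNA or rRNA is counted only where it was primed. Per the submitters' processing notes, BWA, the mm10 build and DESeq2 were used; versions, and how strand and reads matching several places were treated, are not given in the sources here. The deposited values are the authors' normalized counts, written with decimal commas, and none was altered here. Counts quoted were recovered from the step between low values of a library, which made 100% of values whole to within 0.1. Intervals on them are 95% and cover counting error only.

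Of 14912 genes, 296 were 0 throughout, and 10983 reached a value of 5 in 3 libraries or more and were tested. limma 3.58.1 in R 4.3.3 fitted 3 group means to log2(normalized count + 1) with a mean-variance trend and 6 residual degrees of freedom, and p was adjusted by Benjamini-Hochberg over all genes tested; every adjusted p in the text is limma's. Fold changes without "log2" are ratios of group means. A second fit divided each library by its summed mitochondrial mRNAs. All 35 members are accounted for, with values in every library for both rRNAs, all mRNAs and tRNAs that reached a mean of 20 in a group; nuclear genes are the 6 core factors whatever their result and, per list, comparison and direction, up to 3 called genes with the largest change and a mean of 20 or more. The members and lists were chosen with earlier results of these data known. Alternatives were other pseudocounts (0.5 and 5), filters (none and 20), scalings, fits of 2 groups, a replicate block, limma-voom on the recovered counts, and each library left out; the procedure was tested on simulated data. Same-numbered libraries did not deviate together (correlations of deviations -0.05 to 0.06), so they are not treated as pairs. Replicates differed by 7.37 to 25.8 times the counting noise (chi-square per degree of freedom), so none is a repeat deposit. Tables and figures used Python 3.11.15, numpy 2.4.6, pandas 2.3.3, scipy 1.17.1, matplotlib 3.10.9 and Biopython 1.88.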

Additional observations from a re-analysis of the deposited data

How the results depend on the processing

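Of 62 calls of mitochondrial RNAs, 50 passed in the same direction under all of up to 20 alternatives. Quantile normalization, which sets the highest ranks equal across libraries, left 5 of 11 lower members in TGFβ-iTreg against day 0 cells. The calls of mt-Atp6, mt-Co1, mt-Co2, mt-Co3, mt-Cytb and mt-Nd1 were lost. It gave 1 higher member there in place of 0, as did equal totals (1). On the log2 scale, quantile normalization turned mt-Co2 to 0.66 (adjusted p = 0.0505) and mt-Nd3 to 0.38 in that comparison. In mTO-iTreg against day 0 cells it turned mt-Co1 to 0.48 and ended the fall of mt-Nd1. Leaving out single libraries gave 0 to 1 higher members in TGFβ-iTreg against day 0 cells. With a replicate block, 12 members were lower there, mt-Rnr2 being added, 14 were higher and 13 lower in mTO-iTreg against day 0 cells, and 14 and 10 in mTO-iTreg against TGFβ-iTreg cells.

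The nuclear counts were less steady. In TGFβ-iTreg against day 0 cells 5 were higher, 3 in fits of 2 groups and 2 to 5 with single libraries left out. In mTO-iTreg against day 0 cells 5 were higher, 3 with TMM factors, 9 with equal totals, 9 with equal totals after removing chromosome M and Rn45s, 3 in fits of 2 groups, and 1 (without mTO-iTreg replicate 1) to 5 with single libraries left out; 4 were lower, and 7 with quantile normalization. Between the iTreg groups 3 were higher, and 9 by limma-voom. Relative to summed mRNAs, members lower in TGFβ-iTreg against day 0 cells were 3, 1 with no filter and 0 (without day 0 replicate 1 or day 0 replicate 2) to 4 with single libraries left out; 20 were higher in mTO-iTreg against day 0 cells, and 13 with a filter at 20, which tests fewer tRNAs. With all of chromosome M as the denominator, 10 in place of 6 were lower in mTO-iTreg against TGFβ-iTreg cells, where mt-Nd1 turned to -0.36, mt-Nd2 to -0.40 and mt-Nd5 to -0.69, and against day 0 mt-Nd1 turned to -0.077 and mt-Nd2 to -0.90; that sum holds the rRNAs. Why counts or calls moved under an alternative was not tested. The planned edgeR fit on recovered counts was not run; limma-voom was run on them in its place. Depth limits the rarest tRNAs, which had under 10 counts in a group.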
